A study of Mus musculus with 6 samples.

Results

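The genes described here are 43 immediate early and stress genes, transcripts known to appear quickly when a cell is stimulated or when a tissue is taken apart into single cells. The set is a list of gene names, and each gene was read at the probe set that names that gene alone and has the highest mean over all arrays. All 43 had such a probe set, among 18193 genes with 1 on the array, and 40 of the 43 passed the filter on low values that left 15346 genes to test. The others were Npas4, Hspa1a and Hspa1b. The values come from retinal ganglion cells (RGCs), the neurons that send the axons of the eye to the brain, of C57BL/6J mouse embryos harvested at E16.5 (the sample records say E16). In every embryo a tetramethylrhodamine dextran was placed on the cut optic tract and allowed 2 h to travel back to the cell bodies, so that the 2 groups differ in whether the labeled retina lay on the side of the cut (ipsilateral RGCs) or opposite to it (contralateral RGCs). Retinas of 2 litters were pooled by side, dissociated with papain and sorted by FACS for dye and against dead cells, and 3 such rounds each gave 1 ipsilateral and 1 contralateral sample, making 6 arrays. All 6 samples thus carry the same axon cut, incubation, enzyme and sort, no unlabeled or undissociated retina was analysed here, the embryos within a pool cannot be separated, and the study kept the rounds in which Zic2 was most enriched on the ipsilateral side. The sort yielded far fewer ipsilateral than contralateral cells, and within a round the study amplified cDNA from equal amounts of RNA of each side.

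Immediate early genes are switched on by factors that the cell already holds, so they need no new protein before they respond. Calcium, growth factors and stress reach them through kinases that act on CREB, which binds the cyclic AMP response element (CRE), and on serum response factor, which binds the CArG box. Many of the products are transcription factors (Fos, Jun and Egr families), and others shut the response down again by removing phosphate from kinases, holding NF-kB in the cytoplasm or speeding the decay of short-lived mRNAs. In neurons the same genes follow firing, and in many tissues they are also known to respond to the warm enzyme steps of cell isolation.

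The promoters of 4 genes are shown first, because they carry the sequence elements through which these genes are known to be switched on. They are Egr2 and Zfp36, which had the largest 2 differences of the 43 genes, Fos, the best known of them, and Npas4, which is selective for neurons and stayed under the filter level. Each line gives the 250 bases before a transcription start, 5′ to 3′ on the strand of the gene, from RefSeq on GRCm38.p6 (for Egr2 at the listed start nearest to its CArG box), with matches to the CArG box, the CRE core TGACG (or CGTCA on the other strand) and TATAAA in capitals.
Egr2 (chr10:67537316-67537565, + strand): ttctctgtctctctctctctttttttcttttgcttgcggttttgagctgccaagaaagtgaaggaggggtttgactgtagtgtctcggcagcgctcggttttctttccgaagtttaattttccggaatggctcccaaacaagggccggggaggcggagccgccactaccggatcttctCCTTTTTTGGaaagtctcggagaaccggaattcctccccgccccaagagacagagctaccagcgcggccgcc
Zfp36 (chr7:28379229-28379478, - strand): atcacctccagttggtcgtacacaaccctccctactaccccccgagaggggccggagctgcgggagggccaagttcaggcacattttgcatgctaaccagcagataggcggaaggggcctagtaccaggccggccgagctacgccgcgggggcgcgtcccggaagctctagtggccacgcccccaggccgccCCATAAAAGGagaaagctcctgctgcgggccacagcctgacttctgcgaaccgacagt
Fos (chr12:85473640-85473889, + strand): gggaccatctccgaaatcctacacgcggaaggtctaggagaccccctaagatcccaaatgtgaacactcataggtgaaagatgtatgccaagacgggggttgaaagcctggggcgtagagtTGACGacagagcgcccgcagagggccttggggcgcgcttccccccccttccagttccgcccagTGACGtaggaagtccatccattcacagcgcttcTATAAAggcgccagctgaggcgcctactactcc
Npas4 (chr19:4989972-4990221, - strand): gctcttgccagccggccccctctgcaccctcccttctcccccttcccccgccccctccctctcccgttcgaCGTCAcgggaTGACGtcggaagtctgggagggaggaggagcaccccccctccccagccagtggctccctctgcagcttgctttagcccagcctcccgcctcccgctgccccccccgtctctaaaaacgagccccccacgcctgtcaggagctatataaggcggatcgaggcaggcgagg
The CArG box lay 72 to 63 bases before the start in Egr2 and 58 to 49 bases before it in Zfp36. Fos had a CRE core at 129 to 125 and another at 66 to 62 bases, with the TATA element at 33 to 28 bases, and Npas4 had a pair of cores on opposite strands at 179 to 175 and 169 to 165 bases.

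RefSeq promoters were found for 36 of the 43 genes. On either strand of the 250 bases before a start, the CRE core TGACG occurred in 21 of the 36 genes (58.3%), against 19.8% of all 27025 genes with a promoter (17.8% of 32851 promoters). The full palindrome TGACGTCA, which contains that core, occurred in 5 (Dusp1, Btg2, Maff, Plk2 and Ppp1r15a, 13.9%), against 1.77% of all genes. Within these 250 bases, a CArG box stood in Egr2 and Zfp36 alone of the 36 genes (5.56%, against 1.62%), and bases farther upstream were not searched. TGANTCA, a looser form of the AP-1 site in which the middle base may be any base, was in Zfp36l1 and Csrnp1 (5.56%, against 7.82%). GAANNTTC, a pair of heat shock element units, was in Fosl2, Jun, Sgk1, Hspa1a and Hspa1b (13.9%, against 7.73%), and TATAAA in 7 genes (19.4%, against 14.3%). The CRE core was in 6 of the 11 matched genes with a 2-fold or larger difference toward ipsilateral RGCs and in 15 of the other 25. These matches describe the letters in the window and are not measured binding sites.

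Of the 43 genes, 35 had a higher mean in ipsilateral RGCs and 8 a lower one. Differences were large in some and under 1.5-fold in most, and the set as a whole was not tested. All differences below are ipsilateral minus contralateral on the log2 scale, where 1 is 2-fold. The median difference of the 43 genes was 0.39, with 0.34, 0.40 and 0.31 in rounds 1, 2 and 3, whereas the median of all genes tested was -0.01. When single arrays were left out, this median ran from 0.11 (ipsilateral replicate 2 omitted) to 0.59 (ipsilateral replicate 1 omitted), and it was 0.22 with contralateral replicate 1 omitted. An omitted array leaves its round unpaired, and array medians differed between rounds, so these values also carry the level of the round. With both arrays of round 1, 2 or 3 omitted, the median of the 43 genes was 0.41, 0.27 and 0.38. Single genes ranged from -0.29 (Plk2) to 4.14 (Egr2). Of the 43, 27 (62.8%) were within 1.5-fold of equality, among them the 3 genes under the filter level in both groups (24 of the 40 tested). A larger share of all genes tested was that close, since percentiles 3.5 and 93.5 of their differences, -0.58 and 0.57, were both within 1.5-fold. By the mean, 12 of the 43 genes (27.9%) differed by 2-fold or more toward ipsilateral RGCs and 0 toward contralateral RGCs, compared with 2.75% and 0.222% of all genes tested. In 8 genes the ipsilateral sample was 2-fold or more higher in every round, as were 1.08% of all genes. Of the 43 genes, 27 were higher in the ipsilateral sample of every round (62.8%, against 17.6% of all genes), with Hspa1b, under the filter level, among them, and Nr4a3 and Per1 were lower in every round (20.2% of all genes were). In 13 genes all 3 ipsilateral values lay above all 3 contralateral values, against 3.84% of all genes, and in 0 genes all 3 contralateral values lay above the ipsilateral ones, against 1.98%. Because the samples are bulk RNA, fewer cells that express a gene and less of its RNA per cell cannot be told apart.

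**Figure D1:**
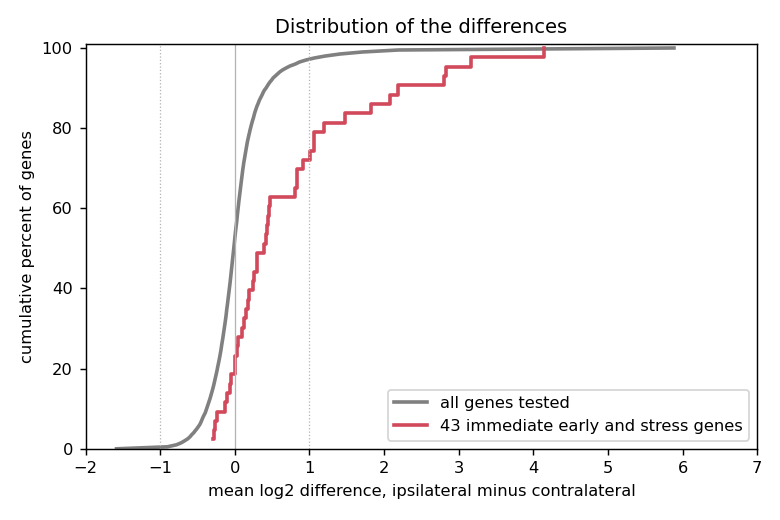
Cumulative percent of genes (vertical axis) by the mean log2 difference, ipsilateral minus contralateral, over 3 rounds (horizontal axis), for the 43 immediate early and stress genes and for all 15346 genes tested. Dotted lines mark a 2-fold difference. The curve of the 43 genes starts at -0.29, lies to the right of the curve of all genes, and has 12 genes past the right dotted line.

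In limma, where a call needed a 2-fold difference and an adjusted p under 0.05 (Benjamini-Hochberg, 36029 probe sets), 3 of the 40 tested genes rose in ipsilateral RGCs, namely Egr2, Zfp36 and Zfp36l1, and 0 rose in contralateral RGCs. Among all 15346 genes the same rule called 0.358% in ipsilateral and 0% in contralateral RGCs. When the samples of a round were compared with each other (the replicate block), limma called 4 of the 40 genes, Fos, Egr2, Atf3 and Zfp36, against 0.319% of all genes, and again 0 (0%) in contralateral RGCs. With p under 0.05 before adjustment in limma and a 2-fold difference, 10 genes passed in ipsilateral and 0 in contralateral RGCs, against 2.47% and 0.156% of all genes. The genes called by both fits were therefore Egr2 and Zfp36. The count of 3 became 7 without ipsilateral replicate 1 and 6 without contralateral replicate 2. It became 0, 0 and 1 when both arrays of round 1, 2 or 3 were left out, where 2 arrays a side remained. The study lists Egr2, Zfp36 and Zfp36l1 as at least 2-fold higher in ipsilateral RGCs at corrected p under 0.05, by a test not named. It also lists Fos, Fosb, Atf3, Egr1, Ier3, Dusp6, Btg2, Egr3 and Zfp36l2, which limma without the block did not call.

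**Figure D2:**
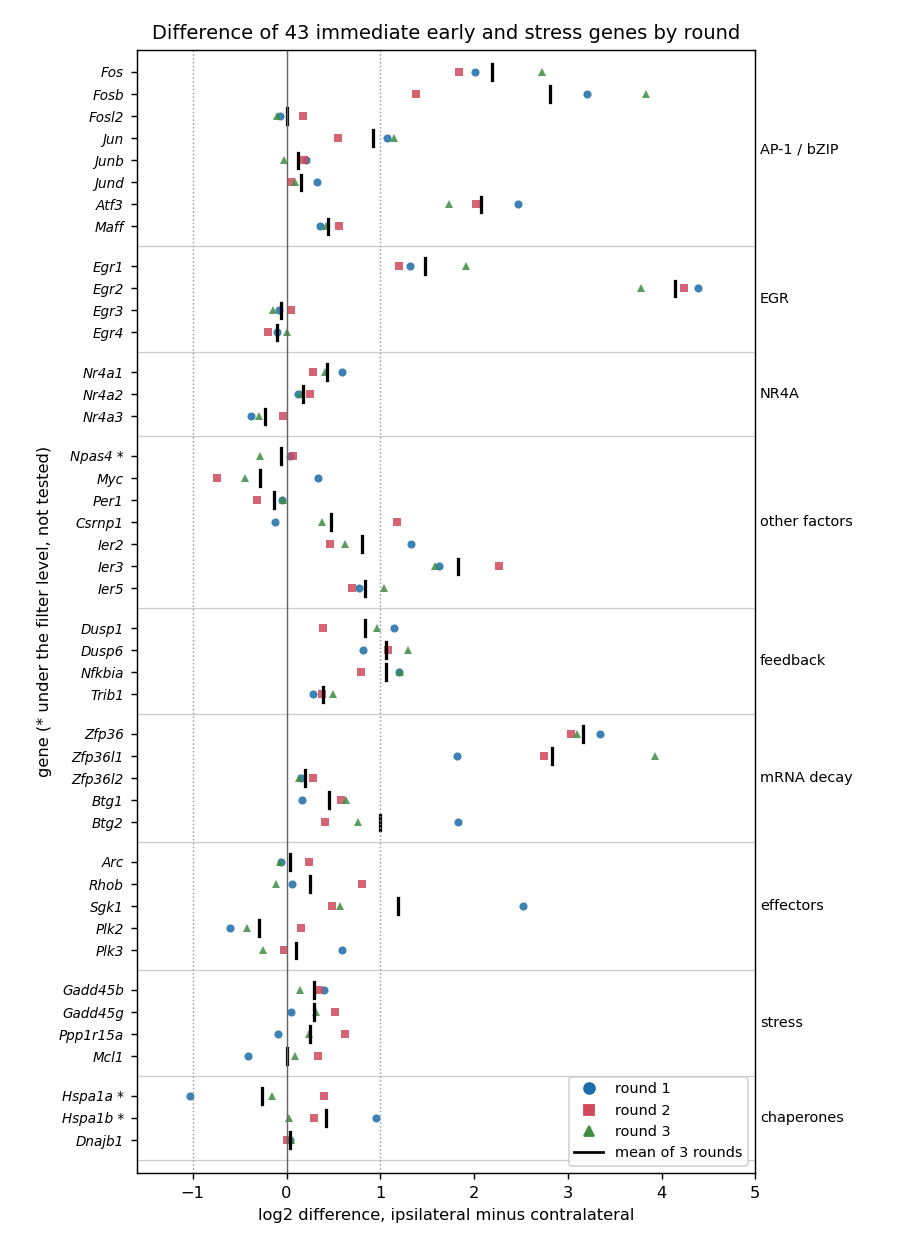
Log2 difference, ipsilateral minus contralateral (horizontal axis), of each of the 43 genes in round 1, round 2 and round 3 (points) with the mean (bar), grouped by role; dotted lines mark 2-fold and asterisks the 3 genes under the filter level. Egr2, Zfp36, Zfp36l1, Fosb, Fos, Atf3, Ier3 and Egr1 are past 1 in every round, and the mean bars of the chaperone, NR4A and stress genes lie between -0.26 and 0.43.

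The EGR genes encode zinc finger transcription factors that bind GC-rich promoter elements. At their brightest probe sets, Egr1 and Egr2 were higher in ipsilateral RGCs, and Egr3 and Egr4 were near equality. Egr2, also known as Krox20 for its part in hindbrain segmentation and Schwann cell myelination, had log2 levels of 8.24, 8.09 and 9.17 in ipsilateral RGCs and 3.85, 3.85 and 5.39 in contralateral RGCs of rounds 1 to 3. Every ipsilateral value was well above every contralateral value, and the contralateral mean of 4.36 ± 0.89 (SD, n = 3) was under the filter level of 4.74. Egr2 rose by 4.14 (SE 0.50, adjusted p = 0.0028 in limma and 0.0113 with the block), and counted from the filter level it was at least 13.6-fold higher. Its other probe set read 7.48, 8.0 and 8.48 against 4.52, 4.58 and 5.34, a difference of 3.17 (limma adjusted p = 0.0062). Egr2 was thus the gene of the 43 with the largest difference, and it was called at each of its probe sets.

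Egr1, the EGR factor most widely used as a marker of neuronal activity, had levels of 10.62, 11.69 and 11.48 in ipsilateral and 9.31, 10.50 and 9.56 in contralateral RGCs. The groups did not overlap, since the lowest ipsilateral value was just above the highest contralateral one. Its difference of 1.48 (SE 0.46) was not called (limma adjusted p = 0.608, and 0.0821 with the block). Egr4 read 6.20, 6.79 and 6.61 against 6.30, 6.98 and 6.61, a difference of -0.10 with overlapping groups. Egr3, known for its part in muscle spindle development, gave 6.90, 8.10 and 7.77 against 6.98, 8.06 and 7.91 at its brightest probe set (difference -0.06). A dimmer probe set of Egr3 read 5.91, 7.39 and 6.52 against 3.59, 6.09 and 4.37, higher in every round but with overlapping groups. The contralateral mean was under the filter level there, so that the gene was at least 3.66-fold higher (adjusted p = 0.593 in limma and 0.0728 with the block). The 2 probe sets of Egr3 therefore disagree, and no single difference is given for this gene.

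**Figure D3:**
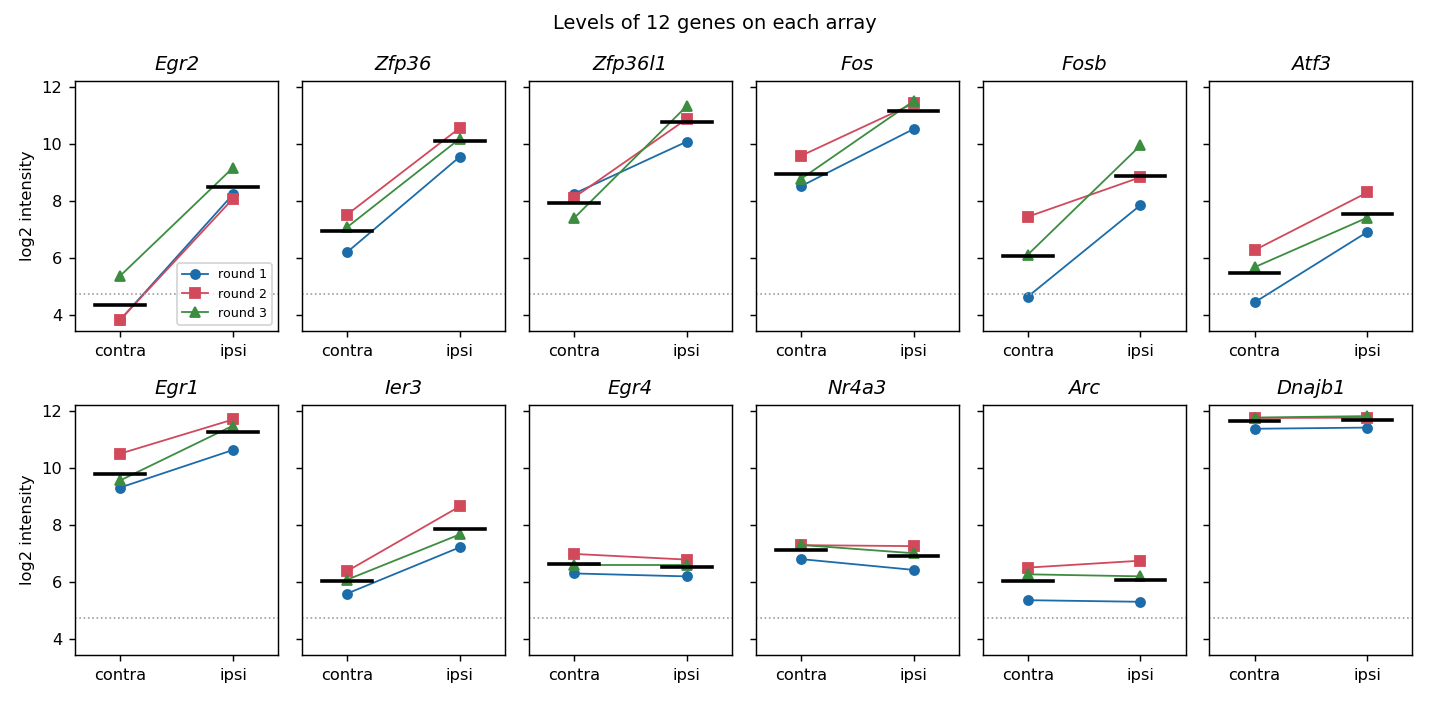
Log2 intensity (vertical axis) of 12 genes in contralateral and ipsilateral RGCs, with lines joining the samples of a round, bars at the group means and a dotted line at the filter level of 4.74. Egr2 climbs from at or below 5.39 to at or above 8.09 in all rounds, Zfp36, Zfp36l1, Fos, Fosb, Atf3, Egr1 and Ier3 also separate by side, and Egr4, Nr4a3, Arc and Dnajb1 overlap.

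Among the AP-1 and other basic leucine zipper factors, which bind DNA as dimers, Fos, Fosb and Atf3 were more than 2-fold higher in ipsilateral RGCs in every round, and the median of the 8 genes was 0.68. Fos, the partner of Jun in AP-1, had levels of 10.53, 11.42 and 11.51 in ipsilateral and 8.52, 9.59 and 8.78 in contralateral RGCs. All ipsilateral values were higher than all contralateral values, and the contralateral sample of round 2 was the highest of its group. The difference in Fos was 2.19 (SE 0.45, n = 3), which missed the threshold without the block (limma adjusted p = 0.0794) and passed it with the block (adjusted p = 0.0490). Fosb, whose long-lived splice form builds up in repeatedly stimulated neurons, read 7.86, 8.84 and 9.96 against 4.66, 7.46 and 6.13. The groups did not overlap, but the rounds spread widely, with differences of 3.21, 1.38 and 3.83. The mean difference in Fosb was 2.81 (SE 0.66) and was not called (limma adjusted p = 0.181, or 0.119 with the block).

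Atf3, which is induced by axon injury in RGCs and sensory neurons, had levels of 6.92, 8.31 and 7.43 in ipsilateral and 4.46, 6.29 and 5.69 in contralateral RGCs. The groups did not overlap, and the differences of the 3 rounds were close to each other at 2.47, 2.02 and 1.74. Its mean difference of 2.07 was called with the replicate block (limma adjusted p = 0.0412) and not without it (adjusted p = 0.248). Jun, the AP-1 subunit that neurons also raise after axon injury, read 11.02, 11.23 and 11.35 against 9.95, 10.68 and 10.21. It was higher in all 3 ipsilateral samples, by 0.92 (SE 0.40, limma adjusted p = 1.0, or 0.154 with the block), under 2-fold. At the other probe set of Jun the difference was 0.41 and the groups overlapped. The other 4 genes of the group had small differences, namely 0.45 in Maff, a small Maf protein without an activation domain, 0.16 in Jund, 0.13 in Junb and 0.00 in Fosl2. Maff and Jund were higher in all rounds, Junb in rounds 1 and 2, and Fosl2 in round 2 only. At another probe set of Fosl2 the contralateral mean was under the filter level and the ipsilateral mean 1.42-fold above that level. The groups overlapped there, and the difference was -0.18 in round 3.

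Proteins that destroy mRNA or hold back proliferation formed the group with the highest median, 1.0, and all 5 were higher in the ipsilateral sample of every round. Zfp36 (tristetraprolin), which binds AU-rich elements of cytokine and immediate early mRNAs and recruits the decay machinery, had levels of 9.56, 10.57 and 10.19 in ipsilateral and 6.22, 7.53 and 7.09 in contralateral RGCs. The groups lay far apart, and the 3 rounds gave nearly the same difference, 3.34, 3.04 and 3.10. Zfp36 rose by 3.16 (SE 0.46, limma adjusted p = 0.0091, or 0.0113 with the block), which is 8.94-fold. Zfp36l1, a relative of Zfp36 that binds the same kind of element, read 10.09, 10.88 and 11.33 against 8.26, 8.13 and 7.40. These groups did not overlap either, and the difference was smallest in round 1 (1.82) and largest in round 3 (3.93), with 2.75 in round 2.

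Zfp36l1 rose by 2.83 (SE 0.45, limma adjusted p = 0.0156), but the call was lost with the replicate block (adjusted p = 0.0918), without ipsilateral replicate 3 (2.55, adjusted p = 0.0950), without contralateral replicate 3 (2.57, adjusted p = 0.0790) and with the mean of its probe sets (1.93, adjusted p = 0.162). At its dimmer probe set, where the contralateral mean was under the filter level, it was at least 1.63-fold higher by the mean, with overlapping groups. Zfp36l2, the other relative, read 8.41, 8.54 and 8.18 against 8.26, 8.25 and 8.04 at its brightest probe set, a difference of 0.19, and 8.31, 7.96 and 9.20 against 6.82, 6.10 and 6.90 at another, a difference of 1.88 (SE 0.45, adjusted p = 0.189 in limma and 0.0582 with the block). As with Egr3, the size of the difference in Zfp36l2 depends on the probe set read. Btg2, an antiproliferative protein that helps remove poly(A) tails and marks neuron-producing divisions, had levels of 8.14, 8.45 and 7.70 in ipsilateral and 6.32, 8.04 and 6.94 in contralateral RGCs. Its groups overlapped because contralateral replicate 2 was high, and the difference of 1.0 (SE 0.48) was not called (limma adjusted p = 1.0), while the other probe set of Btg2 separated the groups (7.48, 7.60 and 7.93 against 6.07, 5.91 and 5.81) with a difference of 1.74 (SE 0.38, adjusted p = 0.130 in limma and 0.0585 with the block). Btg1, its close relative, read 9.65, 10.62 and 10.31 against 9.49, 10.05 and 9.68, with overlapping groups and a difference of 0.46.

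**Figure D4:**
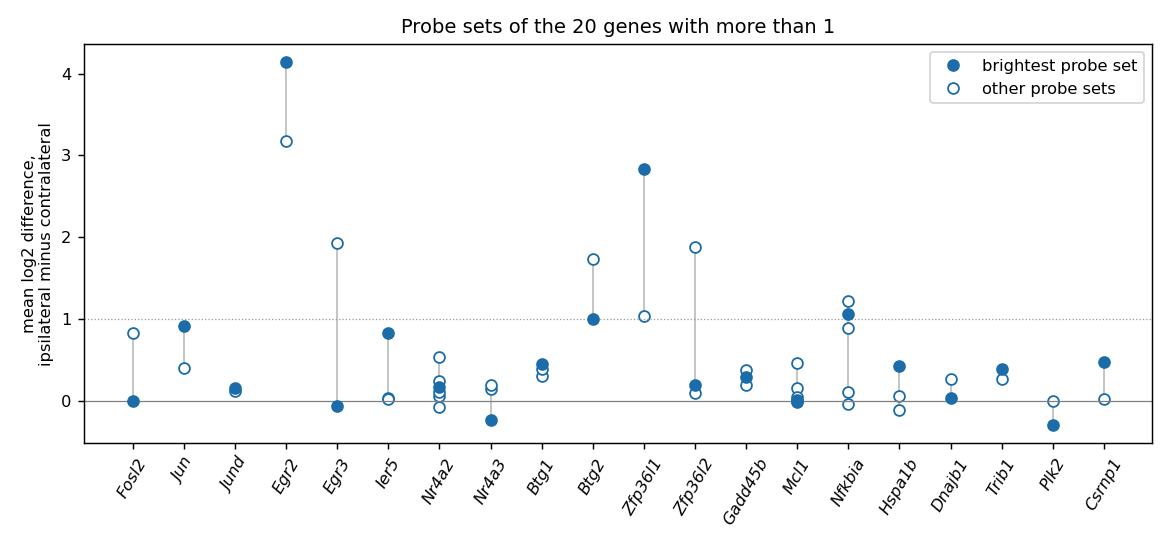
Mean log2 difference, ipsilateral minus contralateral (vertical axis), at every probe set of the 20 genes that have more than 1; filled points are the brightest probe set of a gene, open points the others, and the dotted line is 2-fold. Differences with a group under the filter level, as at the dimmer probe sets of Egr3, Fosl2 and Zfp36l1, are inexact. Egr3, Zfp36l1, Zfp36l2 and Nfkbia spread over 1 or more between their probe sets, whereas those of Jund, Btg1, Trib1 and Gadd45b lie close together.

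In all, 80 probe sets name 1 of the 43 genes, 23 genes have 1 probe set and 20 have several. The difference varied by 1 or more on the log2 scale in 4 of those 20, as the plot of probe sets shows. Levels of different probe sets are not comparable, because each has its own hybridization strength.

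Feedback inhibitors of kinase and NF-kB signaling were all higher in the ipsilateral sample of every round, with a median of 0.95, and none of the 4 was called by limma with or without the block (1 of the 4 had p under 0.05 before adjustment and a 2-fold difference). Dusp6, a phosphatase that inactivates ERK, had levels of 7.65, 8.09 and 8.62 in ipsilateral and 6.83, 7.02 and 7.32 in contralateral RGCs. The groups did not overlap, and the difference was 1.06 (SE 0.41, limma adjusted p = 1.0, or 0.101 with the block). Nfkbia, which holds NF-kB in the cytoplasm, read 8.23, 8.96 and 9.86 against 7.03, 8.16 and 8.65. Its groups overlapped although each round had a higher ipsilateral value, and the difference was 1.07 (SE 0.52), with a range of -0.04 to 1.22 over 5 probe sets. Dusp1, a nuclear phosphatase of stress kinases, read 10.88, 11.25 and 11.50 against 9.74, 10.87 and 10.54, and its difference of 0.83 separated the groups by a margin near 0. Trib1, a pseudokinase scaffold, had the smallest difference of these genes, 0.39.

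Of the other early response proteins, Ier3 was the one past 2-fold in every round. Ier3, which affects cell survival, had levels of 7.22, 8.65 and 7.67 in ipsilateral and 5.60, 6.38 and 6.08 in contralateral RGCs. Every ipsilateral value was above every contralateral value, and the difference was 1.82 (SE 0.46, limma adjusted p = 0.244, or 0.0582 with the block). Ier5, a regulator of heat shock factor activity, read 8.60, 9.01 and 9.52 against 7.82, 8.31 and 8.48 at its brightest probe set. The difference there was 0.84 (SE 0.42), without overlap between the groups. Over the 3 probe sets of Ier5 the difference ran from 0.03 to 0.84, and the groups overlapped at the dimmer ones. Ier2, a small nuclear protein, read 6.81, 7.54 and 7.59 against 5.48, 7.08 and 6.97, a difference of 0.80, and its groups overlapped. Csrnp1, a transcription factor induced by Axin, had a difference of 0.48 that ranged from -0.12 in round 1 to 1.17 in round 2. Myc, the growth-promoting factor, and Per1, the clock gene, had differences of -0.28 and -0.13. Npas4, a factor of neurons that responds to calcium, read 3.11, 3.56 and 4.36 against 3.07, 3.48 and 4.64, so both groups lay under the filter level of 4.74 and no fold is given.

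The NR4A orphan nuclear receptors, which act without a known ligand and follow cyclic AMP and calcium in many cells, had a median of 0.18, and none was 2-fold different in any round. Nr4a1 read 5.71, 6.64 and 5.77 in ipsilateral and 5.12, 6.35 and 5.35 in contralateral RGCs. It was higher in each round, by 0.43 on average (0.13 to 0.80 with single arrays left out), with overlapping groups. Nr4a3 was lower in each round, reading 6.43, 7.26 and 7.01 against 6.80, 7.29 and 7.30 (difference -0.23), but its 3 probe sets, of which 1 lay under the filter level in both groups, ran from -0.23 to 0.19, so its direction depends on the probe set. Nr4a2, known for its role in dopamine neurons, had a difference of 0.18 at its brightest probe set and -0.08 to 0.54 over its 6 probe sets.

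Effectors of the response and its stress arm differed little. Sgk1, a kinase induced by glucocorticoids and osmotic stress, was the exception by the mean, with levels of 7.53, 7.52 and 7.20 in ipsilateral and 5.01, 7.04 and 6.63 in contralateral RGCs. The groups did not overlap, but the difference of 1.19 (SE 0.51, limma adjusted p = 1.0) came mainly from round 1, where it was 2.53, against 0.48 and 0.57 in rounds 2 and 3. Arc, which regulates glutamate receptors at synapses and is the usual mark of recently active neurons, read 5.31, 6.75 and 6.20 against 5.37, 6.51 and 6.27. Its groups overlapped, with a difference of 0.04. Plk2, a kinase that weakens synapses after activity, read 6.77, 8.70 and 7.64 against 7.37, 8.55 and 8.06. Its mean difference of -0.29 was the lowest of the 43 genes, and its other probe set lay under the filter level in both groups. Plk3 and Rhob, a kinase of the stress response and a GTPase of the cytoskeleton, had differences of 0.10 and 0.25.

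The growth arrest and survival genes ranged from 0.00 to 0.30. Gadd45b, a stress sensor linked to DNA demethylation in neurons, read 6.35, 7.40 and 7.13 in ipsilateral and 5.95, 7.05 and 6.99 in contralateral RGCs. Its relative Gadd45g read 7.27, 7.84 and 6.78 against 7.22, 7.32 and 6.47. Both were higher in each round, by 0.30 and 0.29, with overlapping groups, and with single arrays left out the differences ran from -0.06 to 0.60 and from 0.02 to 0.55. Ppp1r15a (Gadd34), which ends the block of translation during stress, had a difference of 0.25, and Mcl1, a survival protein of the Bcl2 family, 0.00.

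The inducible chaperones showed no clear difference. Dnajb1, the Hsp40 partner of Hsp70, read 11.41, 11.76 and 11.81 in ipsilateral and 11.37, 11.74 and 11.76 in contralateral RGCs. The samples of a round differed by 0.04, 0.01 and 0.05, and the mean difference was 0.03. Hspa1a and Hspa1b encode the stress-induced Hsp70, and since these genes are nearly identical their probe sets may share signal and both are uncertain. Hspa1a read 2.51, 4.75 and 4.71 against 3.55, 4.34 and 4.87, and Hspa1b read 5.33, 3.62 and 4.80 against 4.37, 3.32 and 4.78. Their group means were under the filter level in both groups, so neither was tested.

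Genes of the same pathways outside the set were less shifted by their medians, although a difference between lists was not tested. Of 30 other early response genes, all measured and 29 tested, limma called 0 in either direction with or without the block, and 5 had p under 0.05 before adjustment and a 2-fold difference, all higher in ipsilateral RGCs (2.47% of all genes passed that rule on that side). Their median difference was 0.05, and 11 were higher and 4 lower in every round. The 3 with the largest differences at the brightest probe set were Klf9, a glucocorticoid-responsive zinc finger factor (2.20, SE 0.63, limma adjusted p = 0.461, or 0.0504 with the block), Ccn1, a secreted matrix protein (1.92, SE 0.42, adjusted p = 0.117, or 0.0745 with the block), and Klf4, a zinc finger factor that limits axon growth of RGCs (1.55, SE 0.49, adjusted p = 0.646). They have 7, 4 and 2 probe sets, and only the brightest of each was read here. The study lists both probe sets of Klf4 as higher in ipsilateral RGCs, with the larger fold change at the one not read here. Of 20 upstream factors and kinases, 15 were measured and 0 called, with 0 also at p under 0.05 before adjustment. Their differences ranged from -0.66 in Mrtfa, a cofactor of serum response factor, to 0.48 in Elk4, which joins that factor on DNA, with a median of 0.15, and Map2k1, the kinase that activates ERK, had a difference of 0.41. Of 18 constitutive chaperones and stress genes, 17 were measured, 16 tested and 0 called, again with 0 at the unadjusted p. Their median was -0.07, and the 3 largest differences were 0.31 in Hspa9, 0.28 in Hspe1 and 0.27 in Hsph1, which encode chaperones of the mitochondrion and the cytoplasm.

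Markers of other cells moved with the side as well. Of 18 microglia and macrophage markers 17 were measured and 16 tested, and limma called 9 in ipsilateral RGCs, namely C1qb (at least 48.6-fold), Csf1r (at least 50.5-fold), Ctss (a log2 difference of 5.29), Laptm5 (4.61), C1qc, Tyrobp, Aif1, P2ry12 and Fcrls, of which all but P2ry12 were called with the block. C1qb and Csf1r have 3 probe sets each, and these bounds hold for the brightest alone. The study lists smaller fold changes for Csf1r at its other probe sets. The median difference of the 17 markers was 2.95, with 3.38, 3.28 and 2.20 in rounds 1 to 3, and their summed intensity ran from 8790 to 13781 in ipsilateral and from 541 to 1287 in contralateral RGCs. In contralateral RGCs 6 of the 17, C1qb, C1qc and Csf1r among them, had means under the filter level, and 1 did in ipsilateral RGCs. Of 12 retinal progenitor markers 11 were measured and limma called Sox2, Sox9 and Sfrp2, with 0 called with the block, while 8 had p under 0.05 before adjustment and a 2-fold difference without it. Their median was 1.56, with 1.23, 1.56 and 2.61 in the 3 rounds, and their summed intensity was 11285 to 22558 in ipsilateral and 6860 to 7344 in contralateral RGCs. Endothelial and pericyte markers (9 measured, 7 tested, 0 called) had a median of 0.00. The part of these cells in the differences of the 43 genes was not tested.

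**Figure D5:**
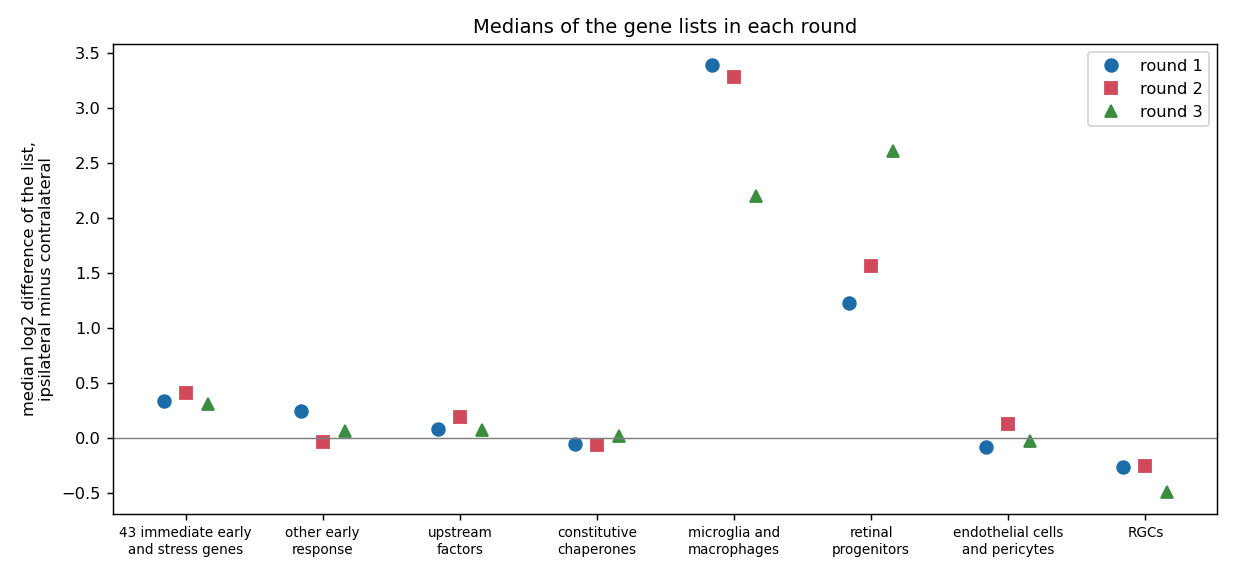
Median log2 difference, ipsilateral minus contralateral (vertical axis), of each gene list in round 1, round 2 and round 3 (points). The 43 genes lie between 0.31 and 0.40, the microglia and progenitor markers between 1.23 and 3.38, the other early response genes, upstream factors, constitutive chaperones and endothelial markers between -0.08 and 0.24, and the RGC markers below 0.

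Markers of RGCs were well above the filter level on both sides. Of 15 RGC markers 13 were measured, and Isl1 had log2 levels of 11.26, 11.23 and 11.34 in ipsilateral and 11.44, 11.72 and 11.72 in contralateral RGCs. All 13 were lower in the ipsilateral sample of every round, with a median of -0.36 and 0 called. For the RNA quality of the arrays, the log2 signal of the 3′ over the 5′ control probe sets of Gapdh was 2.25 to 2.58 in ipsilateral and 2.13 to 2.32 in contralateral RGCs, and that of actin was -0.24 to 0.04 and -0.32 to 0.11. Array medians were 5.81, 6.70 and 6.33 in ipsilateral and 5.80, 6.65 and 6.26 in contralateral RGCs, so that levels differed more between rounds than between sides, and the part of either measure in the differences was not tested.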

How the data were processed

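Each of the 6 deposited columns holds log2 intensities per probe set, which the authors made with RMA in Affymetrix Expression Console 1.1. RMA subtracts background, normalizes and summarizes probes. The deposited columns were fitted as they stand, although their medians ran from 5.80 to 6.70 and followed the rounds. The arrays thus do not share 1 distribution, and the fit without the block carries that difference between rounds. The methods give a 2-fold change and adjusted p under 0.05 but no test. Of 45101 probe sets, 64 controls were left out and 36029 kept, those with a mean at or above the 20th percentile (log2 4.74). Sides were compared with limma 3.58.1 (lmFit, eBayes, 2-sided) in R 4.3.3, with the replicate number as a block in an alternative. Round numbers pair the samples by design, and deviations from the group means correlated at 0.566, 0.574 and 0.705 within rounds against -0.403 to -0.219 between them. Because each group was centred on its own mean, negative values between rounds follow from positive ones within them and add no separate evidence of pairing. The median SE was 0.44, or 0.17 with the block. An exact permutation test of 3 against 3 arrays cannot go below p = 0.10. The genes, lists and roles were chosen with earlier results of these data known. Values in every sample are given for called genes and for up to 2 more of each role with the largest differences, and for others picked after their values were seen. The annotation is GEO's, and 34741 of 34945 probe sets that name 1 gene matched RefSeq. Promoters were searched with Python 3.11.15.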

Additional observations from a re-analysis of the deposited data

How the results depend on the processing

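No member of the set was called in contralateral RGCs under any alternative run. With the replicate block, which pairs the samples of a round, 4 members and 75 probe sets were called in ipsilateral RGCs instead of 3 and 88, and the block ended the call of Zfp36l1 and added Fos and Atf3. The count of members became 5 with a filter at the 50th percentile, 6 with arrays centred on their medians and 6 with an intensity trend and robust estimation, which also called 179 probe sets. It ran from 0 to 7 when arrays were left out, and that of probe sets from 0 to 212. Without ipsilateral replicate 1 the 7 were Egr2, Zfp36, Zfp36l1, Fos, Fosb, Ier3 and Atf3, without contralateral replicate 2 there were 6, and without ipsilateral or contralateral replicate 3 there were 2, Egr2 and Zfp36. Leaving out both arrays of a round, chosen after the data were seen, left 0, 0 and 1 (Egr2 without round 3). Egr2 then had adjusted p of 0.391, 0.0524 and 0.0048 without rounds 1, 2 and 3, with differences of 4.01, 4.09 and 4.32, and Zfp36 had 0.248, 0.0830 and 0.167. Fewer arrays were fitted there, and other causes were not tested. The median of 0.39 became 0.46 with the stricter filter and 0.33 when the probe sets of a gene were averaged. It ran from 0.11 to 0.59 with single arrays left out, and from 0.27 to 0.41 with both arrays of a round left out. With a single array left out its round is unpaired, so counts and differences there also carry the level of the round. With all 3 rounds kept, between 24 and 27 members were higher in every round. With 1 round left out, 27 to 30 were higher in both remaining rounds, an easier rule. Among named genes, uncalled differences changed sign when 1 array was left out in Egr4 (-0.266 to 0.0756), Nr4a3 (-0.414 to 0.00171), Gadd45b (-0.0595 to 0.601) and Plk2 (-0.793 to 0.176), and Nr4a3 also with averaged probe sets (0.0378). Precision is limited by the small number of arrays, and probe sets near the filter level give inexact differences.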
